A study of Homo sapiens with 12 samples.

Results

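In this experiment the genotype difference at day 8 was set against that at day 4, gene by gene, in H9 cells labelled SOX21-/- and wild type, and each gene was sorted by whether its difference was new at day 8, grew, faded or turned. H9 is an established human embryonic stem cell line, here taken along a path of neural differentiation, and SOX21 is a SOX-family transcription factor, present in neural progenitors. The 8 libraries compared were S13 and S23 at day 8, WT1 and WT2 at day 8, S13 and S23 at day 4, and WT1 and WT2 at day 4, out of 12 in all. S13 and S23 carry the label SOX21-/-, and WT1 and WT2 the label wild type. The labels do not say whether S13 and S23, or WT1 and WT2, are separate clones, or whether a name repeated at both days marks one culture. The p-values below thus measure only the spread between these libraries, which may be technical.

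The measure for each gene was an interaction, the difference between S13 and S23 and wild type at day 8 minus the same difference at day 4, on log2(TPM + 1). TPM is a gene's share of the transcripts, corrected for length, and each library sums to one fixed total, so the depth behind a value is unknown. A positive interaction means that S13 and S23 moved up relative to wild type from day 4 to day 8. On the log2(TPM + 1) scale, changes of weakly expressed genes come out too small. Of 24248 genes tested, 270 (1.11%) passed limma's test at an adjusted p of 0.05.

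Between these days, cells on a neural path lose the last stem cell transcripts and take on regional identities along the forebrain. WNT, FGF and BMP ligands and their receptors are known to pattern this tissue, with WNT signalling favouring caudal over rostral fates. The repressors of the HES family are known to hold progenitors back from becoming neurons. A few markers of the labelled tissue, chosen after their values were seen, are given first. Among the progenitor genes, SOX2 was at 374 and 436 TPM for S13 and S23 versus 414 and 386 TPM for WT1 and WT2 at day 8, and PAX6 was at 204 and 190.2 TPM against 126 and 95.1 TPM. The stem cell factor POU5F1 was at most 1.41 TPM in the day 8 libraries and between 20.5 and 32.4 TPM in the day 4 libraries, and NANOG was under 1 TPM in all 8. The sum over the list of 20 pluripotency genes fell far less. It was 1280 and 1460 TPM for S13 and S23 versus 1420 and 1380 TPM for WT1 and WT2 at day 8. At day 4 it was 1610 and 1760 TPM against 1770 and 1800 TPM. The progenitor list summed to 4010 and 4150 TPM against 3380 and 3220 TPM at day 8, and to 2250 and 2810 TPM against 2370 and 2480 TPM at day 4.

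SOX21, the targeted gene (chromosome 13, 94709622 to 94712399, minus strand, GRCh38), did not separate the genotype labels by its mRNA level. It was at 253 and 69.9 TPM for S13 and S23 versus 129 and 100 TPM for WT1 and WT2 at day 8. On day 4 the level was 162 and 143 TPM for S13 and S23 and 156 and 166 TPM for WT1 and WT2. The groups overlapped at both days, and the interaction was 0.31 (SE 0.66, limma adjusted p = 0.899). A TPM value per gene carries no sequence, so these levels cannot show whether SOX21 was disrupted, which was not tested. Directions below compare libraries by their labels.

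Across the 8 libraries, the Pearson correlation between the members of a group ran from 0.955 to 0.962 over genes tested, which are not independent replicates. Genes at 1 TPM or more numbered 19746 and 19755 in S13 and S23 against 19830 and 19834 in wild type at day 8, and 17586 and 17949 against 18870 and 18884 at day 4. The median over all genes tested moved the same way, at 0 at day 8 and -0.12 at day 4, so that the median interaction was 0.12. These figures move with the excess of positive interactions below, and their part in it was not tested.

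Of the 270 genes, 191 had a positive interaction (0.788% of the genes tested) and 79 a negative one (0.326%). The positive share was 70.7% on the deposited scale, 55.8% after median-of-ratios scaling and 53.3% after quantile normalization, both of which bring the median interaction to 0.00. Of the 270, 102 still passed after median-of-ratios scaling and 165 after quantile normalization. Every one of the 270 kept its sign under both. The smallest interaction among them, 0.48 in size, was well above the median interaction of 0.12, so a shift of that size could not have turned a sign. Protein-coding genes made up 180 of the 270, and 206 reached a mean of 5 TPM in at least 1 of the 4 groups. A further caution concerns low values, since 70 genes were listed at 0 in all libraries of at least 1 group. The day 0 libraries also entered the fit, and 103 of the 270 genes were under 1 TPM in all 4 of them. For 54 genes all 4 were listed at 0. Groups near 0 add almost no spread to the shared estimate, and their part in the calls was not tested.

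New differences made up most of the sort. At day 8, 676 genes differed between the genotypes (2.79% of those tested), 357 higher in S13 and S23 (1.47%) and 319 lower (1.32%). At day 4, 188 differed (0.775%), 58 higher (0.239%) and 130 lower (0.536%). Among the 270, 175 were new, meaning that they passed at day 8 and not at day 4. The adjusted threshold was harder to reach at day 4, where fewer genes passed. WLS missed at day 4 with 1.66 (SE 0.32, limma adjusted p = 0.0644). HDAC7 passed at day 8 with 0.54 (SE 0.11, adjusted p = 0.0383), which is smaller against its SE. A new gene may thus have differed at day 4 already. In 105 of the 175 the fitted differences at day 8 and day 4 had opposite signs. Only EPHA7 grew, 41 faded, 13 turned, and 40 passed neither day's own test. The last group is called unplaced here. Without day 0 in the fit the interaction passed for 45 genes, 41 of them among the 270. No gene passed at day 4 in that fit, although 3874 had an unadjusted p under 0.05 there, so the classes fades, grows and turns rest on the spread shared with day 0.

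**Figure D1:**
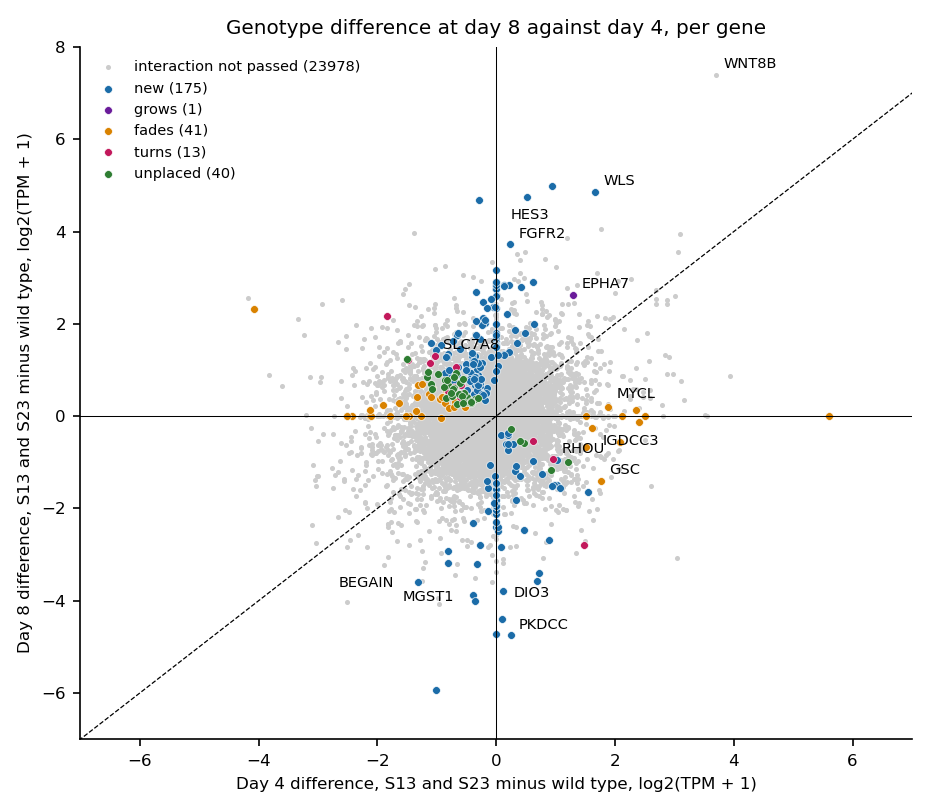
Each point is 1 of the 24248 genes tested, with its day 4 difference on the x axis and its day 8 difference on the y axis, both S13 and S23 minus wild type in log2(TPM + 1); colours give the class of the 270 genes whose interaction passed. The blue points of the 175 new genes run up and down near a day 4 difference of 0, and most of the 41 fading genes lie near a day 8 difference of 0.

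Among the new increases of protein-coding genes HES3 had the largest interaction. HES3 (chromosome 1, 6244192 to 6245578, plus strand) encodes a repressor of the HES family of NOTCH-related factors. It was at 44.4 and 73.6 TPM for S13 and S23 versus 1.22 and 1.09 TPM for WT1 and WT2 at day 8. Day 4 gave 95.0 and 151 TPM for S13 and S23 and 78.8 and 88.0 TPM for WT1 and WT2. The groups stood far apart at day 8 and near each other at day 4. HES3 fell in both genotypes by day 8, by 1.05 on the log2 scale in S13 and S23 and by 5.29 in wild type, which left an interaction of 4.24 (SE 0.40, limma adjusted p = 0.00638).

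FGFR2, a receptor for fibroblast growth factors (chromosome 10, 121478334 to 121598458, minus strand), was kept in S13 and S23 and fell in wild type. It was at 114 and 153 TPM for S13 and S23 versus 13.3 and 6.11 TPM for WT1 and WT2 at day 8. The day 4 levels were 69.9 and 101 TPM for S13 and S23 and 69.8 and 73.0 TPM for WT1 and WT2. The groups did not overlap at day 8 and lay close together at day 4. The wild-type step was -2.84 (adjusted p = 0.00164), the step in S13 and S23 was 0.65 (adjusted p = 0.171), and the interaction was 3.49 (SE 0.44, adjusted p = 0.0169, all from limma).

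WLS, the carrier that brings WNT ligands out of the cell (chromosome 1, 68098473 to 68233120, minus strand), moved in opposite ways in the genotypes. It was at 590.3 and 665 TPM for S13 and S23 versus 27.8 and 15.1 TPM for WT1 and WT2 at day 8. Earlier, at day 4, it held 199.6 and 227 TPM for S13 and S23 and 78.0 and 56.8 TPM for WT1 and WT2. S13 and S23 were the higher libraries at both days. The day 4 difference of 1.66 missed the threshold (adjusted p = 0.0644), so that WLS counts as new although it already stood apart, and the interaction was 3.20 (SE 0.46, limma adjusted p = 0.0238). Exons of WLS share 111 bases with those of GNG12-AS1 on the other strand, which had a like course. GNG12-AS1 was at 36.4 and 62.9 TPM for S13 and S23 versus 1.26 and 0.0449 TPM for WT1 and WT2 at day 8 (interaction 4.06). Unless strand was used, which is not stated, reads of the pair cannot be told apart where they overlap.

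The long RNA MIAT was at 400.3 and 608 TPM for S13 and S23 versus 95.9 and 59.6 TPM for wild type on day 8, and at 164 and 293 TPM against 268 and 287 TPM at day 4, where the groups overlapped (interaction 3.03, SE 0.49, limma adjusted p = 0.0351). Genes near silence in all 4 libraries of day 4 came on in S13 and S23. DMRT3, a transcription factor of the medial forebrain, was at 14.3 and 9.54 TPM for S13 and S23 versus 1.12 and 0.483 TPM for wild type on day 8, and under 1 TPM in all 4 libraries of day 4 (interaction 2.71, SE 0.38, adjusted p = 0.0217). NR5A1, a nuclear receptor known from steroid-making tissues, was at 5.89 and 7.89 TPM against 0.464 and 0.348 TPM at day 8 (interaction 2.70, SE 0.29, adjusted p = 0.0102).

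SOX14 and LINC01210 lie next to each other on the plus strand of chromosome 3 (137764284 to 137766338 and 137771949 to 137780878, GRCh38). SOX14 encodes a SOX factor of the same subgroup as SOX21. It was at 3.40 and 5.06 TPM for S13 and S23 on day 8 and listed at 0 in WT1 and WT2, and LINC01210 was at 6.13 and 5.41 TPM and listed at 0 likewise. At day 4 LINC01210 was listed at 0 in all 4 libraries and SOX14 was at most 0.0771 TPM. Both interactions passed (limma adjusted p = 0.0157 for SOX14 and 0.00638 for LINC01210), and no fold is given against a group at 0. The same holds for the long RNA RP11-159D12.11, at 4.37 and 8.48 TPM for S13 and S23 on day 8 and listed at 0 in the other 6 libraries (adjusted p = 0.0199).

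New decreases were 60 in number, against 115 new increases; the numbers were 28 and 43 after median-of-ratios scaling and 68 and 83 after quantile normalization. PKDCC, which encodes a secreted kinase (chromosome 2, 42048020 to 42058528, plus strand), had the largest interaction among the genes named. It was at 8.64 and 5.08 TPM for S13 and S23 versus 186 and 226 TPM for WT1 and WT2 at day 8. On day 4 the level was 307 and 389 TPM for S13 and S23 and 286 and 298 TPM for WT1 and WT2. S13 and S23 were above wild type at day 4 and far below it at day 8. The step was -5.50 in S13 and S23 (adjusted p = 1.36e-05) and -0.51 in wild type (adjusted p = 0.174), and the interaction was -4.99 (SE 0.31, adjusted p = 0.00117, all from limma).

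FZD5, a WNT receptor of the frizzled family (chromosome 2, 207762586 to 207769563, minus strand), followed the same route. It was at 13.7 and 8.24 TPM for S13 and S23 versus 174 and 200.2 TPM for WT1 and WT2 at day 8. Day 4 gave 105 and 135 TPM for S13 and S23 and 142 and 164 TPM for WT1 and WT2. The day 4 groups were neighbours without overlap, and the day 8 groups were far apart (interaction -3.65, SE 0.31, limma adjusted p = 0.00473). Its relative FZD8 was at 2.44 and 1.96 TPM against 25.1 and 32.4 TPM at day 8, and at 16.2 and 10.8 TPM against 16.1 and 17.7 TPM at day 4 (interaction -2.88, SE 0.33, adjusted p = 0.0115). MGST1, a glutathione transferase of membranes (plus strand of chromosome 12, 16347142 to 16609259), was at 26.2 and 21.2 TPM against 311 and 413 TPM at day 8, and at 296 and 276 TPM against 372 and 379 TPM at day 4 (interaction -3.48, SE 0.19, adjusted p = 0.000967). FZD5, FZD8 and MGST1 all fell in S13 and S23 by day 8, and their wild-type steps did not pass.

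DIO3, BEGAIN and VAX1 took the other route, a rise in wild type that S13 and S23 did not share. DIO3, which inactivates thyroid hormone, was at 0.889 and 0.284 TPM for S13 and S23 versus 19.3 and 21.7 TPM for WT1 and WT2 at day 8, and between 0.478 and 1.21 TPM in the 4 libraries of day 4 (interaction -3.90, SE 0.37, limma adjusted p = 0.00638). BEGAIN was at 9.23 and 5.34 TPM against 103 and 91.5 TPM at day 8, and at 7.53 and 8.82 TPM against 26.3 and 18.2 TPM at day 4 (interaction -2.28, SE 0.37, adjusted p = 0.0382). Both lie on chromosome 14 beside or within the imprinted DLK1-DIO3 region (BEGAIN at 100537147 to 100587413, minus strand, and DIO3 at 101561351 to 101563452, plus strand). DLK1, a NOTCH-like ligand of that region, was at 339 and 114 TPM against 3194 and 2908 TPM at day 8 and at 261 and 319 TPM against 529 and 608 TPM at day 4, and its interaction of -2.97 missed the threshold (SE 0.58, adjusted p = 0.0559). The DLK1 interaction was -3.76 without S13 and -2.19 without S23 at day 8. S13 and S23 lay far apart there, and a fit that keeps 1 of them loses that spread. With a filter at 5 TPM the DLK1 interaction passed (limma adjusted p = 0.0481), but it did so in only 4 of 22 refits in all. Exons of BEGAIN share 273 bases with those of CTD-2062F14.3 on the other strand.

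ADCYAP1R1, the receptor for the neuropeptide PACAP, was at 0.466 and 0.153 TPM for S13 and S23 versus 6.40 and 8.46 TPM for wild type on day 8. At day 4 the order was the other way, with 1.95 and 1.17 TPM for S13 and S23 versus 0.289 and 0.436 TPM (interaction -3.58, SE 0.49, limma adjusted p = 0.0204). SEMA5A, a transmembrane semaphorin of axon guidance, was at 2.50 and 1.78 TPM against 25.8 and 28.97 TPM at day 8 and at 4.01 and 4.20 TPM against 7.78 and 8.13 TPM at day 4 (interaction -2.37, SE 0.26, adjusted p = 0.0102).

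HES3, PKDCC, DIO3, FZD5 and MGST1 passed in each of the 12 fits that left out 1 library, with adjusted p of at most 0.0367. NR5A1 and LINC01210 passed in the 10 leave-outs in which each was tested. Those without S13 or S23 at day 8 were not among them, as both genes then missed the entry rule of 1 TPM in 2 libraries. These are the libraries in which they stood out, so the 10 did not put that difference to the test. Neither gene passed with days 4 and 8 only (limma adjusted p = 0.0693 and 0.0679) or with the line label as a block (0.0646 and 0.0517). LINC01210 also missed with a filter at 5 TPM. The call was less steady for the others: FGFR2 and DMRT3 passed in 8 of 12, WLS in 6 and MIAT in 2, and RP11-159D12.11 in 5 of the 10 in which it was tested, with adjusted p of at most 0.127. FZD8 lost it without WT1 at day 4 (adjusted p = 0.0590), WT2 at day 8 or S23 at day 8, and SEMA5A without WT1 at day 4 or WT2 at day 8. ADCYAP1R1 kept it in 7 of 12 and BEGAIN in 1, and SOX14 in 7 and VAX1 in 1 of the 10 in which they were tested. For RP11-159D12.11 and SOX14 the leave-outs without a test were those of S13 or S23 at day 8. For VAX1 they were those of WT1 or WT2 at day 8. After median-of-ratios scaling WLS, MIAT, ADCYAP1R1 and VAX1 missed the threshold, with adjusted p of 0.0551, 0.0556, 0.0538 and 0.0678.

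**Figure D2:**
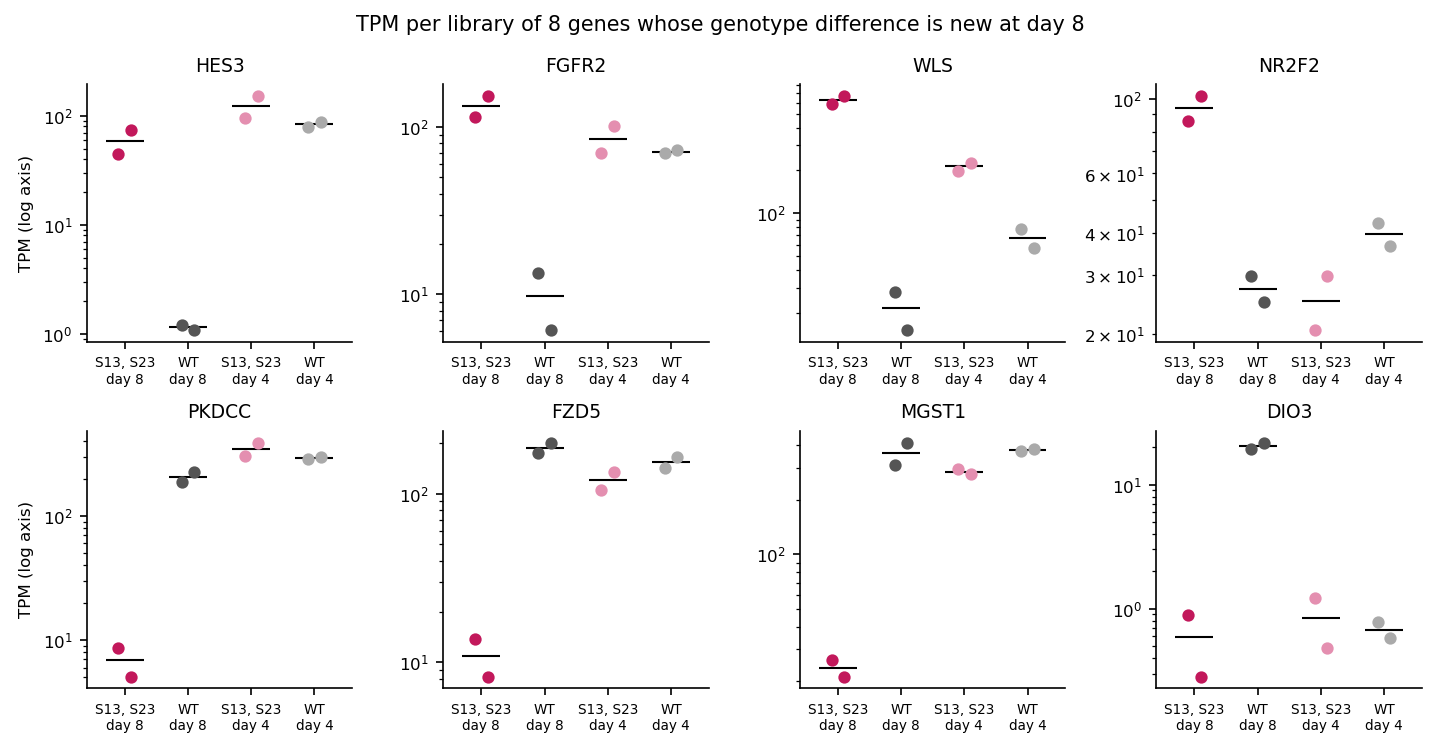
TPM per library on a log axis (y) for 8 genes whose difference was new at day 8, in S13 and S23 at day 8, wild type at day 8, S13 and S23 at day 4, and wild type at day 4 (x); points are libraries and lines are means of 2. HES3, FGFR2, WLS and NR2F2 stand higher in S13 and S23 at day 8 and PKDCC, FZD5, MGST1 and DIO3 lower, while for HES3, FGFR2 and DIO3 the day 4 groups lie close together or overlap.

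The promoters of HES3, WLS and FZD5, genes in which the new differences were large and whose proteins act in the repression of differentiation, the release of WNT and the reception of WNT, are shown here from 250 bases before to 50 bases after the start in RefSeq on GRCh38.p14. HES3 lies at chr1:6243929-6244228 on the plus strand, WLS (the first of its RefSeq entries) at chr1:68232474-68232773 on the minus strand and FZD5 at chr2:207769857-207770156 on the minus strand.
HES3: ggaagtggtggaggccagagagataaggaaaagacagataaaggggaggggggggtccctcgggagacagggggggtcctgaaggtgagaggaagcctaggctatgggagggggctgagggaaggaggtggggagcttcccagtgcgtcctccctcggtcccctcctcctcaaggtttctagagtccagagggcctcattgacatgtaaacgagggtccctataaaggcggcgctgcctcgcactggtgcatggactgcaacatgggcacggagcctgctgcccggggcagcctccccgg
WLS: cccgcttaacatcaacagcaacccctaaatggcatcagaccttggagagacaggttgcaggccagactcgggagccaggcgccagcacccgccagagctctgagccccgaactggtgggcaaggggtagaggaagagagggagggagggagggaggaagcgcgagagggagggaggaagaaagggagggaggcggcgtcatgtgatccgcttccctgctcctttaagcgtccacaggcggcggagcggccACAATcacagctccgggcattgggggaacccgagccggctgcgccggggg
FZD5: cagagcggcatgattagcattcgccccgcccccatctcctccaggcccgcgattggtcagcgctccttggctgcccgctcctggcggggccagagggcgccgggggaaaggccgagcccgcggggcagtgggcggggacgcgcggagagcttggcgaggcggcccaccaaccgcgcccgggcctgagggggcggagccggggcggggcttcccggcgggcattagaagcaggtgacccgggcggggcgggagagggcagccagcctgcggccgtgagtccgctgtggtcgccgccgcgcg
Capitals mark the letters ACAAT, the core read by SOX factors. These letters and TCAAAG, the core read by TCF and LEF factors of the WNT pathway, were searched on both strands. They do not overlap each other. ACAAT was found at the start site of WLS and neither was found in the windows of HES3 and FZD5. Of the 270 genes, 135 matched a RefSeq entry, with 216 promoters between them, of which 20.4% held ACAAT and 6.02% TCAAAG, beside 18.7% and 9.45% of the 17037 promoters of genes tested. A match of letters is a description and not a binding site.

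Because the interaction equals the step of S13 and S23 minus the wild-type step, each gene could also be sorted by the genotype that moved. From day 4 to day 8, 6336 genes passed in S13 and S23 (26.1%) and 3058 in wild type (12.6%). Of the 270, 134 passed in S13 and S23 alone, 62 in wild type alone, 43 in both in opposite ways and 31 in both the same way. In S13 and S23 alone 108 rose and 26 fell. In wild type alone 33 rose and 29 fell. These counts are on the deposited scale, where the median step over all genes tested was 0.20 in S13 and S23 and 0.03 in wild type. The part of that offset in the counts was not tested. The split differed by class: of the new increases 66 of 115 passed in S13 and S23 alone and 15 in wild type alone, and of the new decreases 18 of 60 in S13 and S23 alone and 32 in wild type alone. The difference between these shares was not tested.

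**Figure D3:**
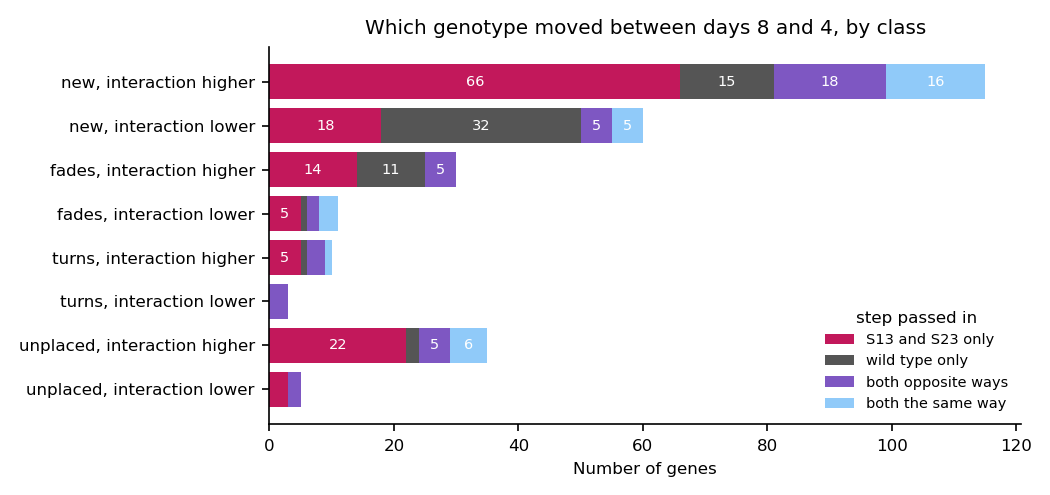
Number of genes (x) by class and by the sign of the interaction (y), coloured by the genotype in which the step from day 4 to day 8 passed; EPHA7, the one growing gene, is not drawn. New increases passed mostly in S13 and S23 alone (66 of 115), and new decreases most often in wild type alone (32 of 60).

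EPHA7, a receptor for ephrins (chromosome 6, 93240020 to 93419547, minus strand), was the gene whose difference grew. It was at 87.9 and 80.5 TPM for S13 and S23 versus 13.3 and 12.2 TPM for WT1 and WT2 at day 8. The day 4 levels were 29.5 and 34.3 TPM for S13 and S23 and 12.1 and 12.7 TPM for WT1 and WT2. Wild type stayed at one level and S13 and S23 were above it at both days. The difference was 2.63 at day 8 (adjusted p = 0.000105) and 1.29 at day 4 (adjusted p = 0.00870), with an interaction of 1.34 (SE 0.17, limma adjusted p = 0.0172). The interaction passed in 7 of the 12 leave-outs, with an adjusted p of at most 0.0762.

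Calls at both days the same way were few. Of 38 such genes, 21 higher and 17 lower, EPHA7 alone passed the interaction (2.63%). It passed in 175 of the 625 genes called at day 8 only (28%) and in 1.11% of all genes tested. WNT8B, a WNT ligand of the medial forebrain (plus strand of chromosome 10, 100463041 to 100483744), was at 322 and 303 TPM for S13 and S23 versus 1.60 and 0.317 TPM for WT1 and WT2 at day 8. Earlier, at day 4, it held 26.7 and 94.3 TPM for S13 and S23 and 2.78 and 3.19 TPM for WT1 and WT2. S23 stood well above S13 at day 4, and both stood above wild type at both days. The difference was 7.40 at day 8 and 3.69 at day 4, but the interaction of 3.71 missed the threshold (SE 0.73, limma adjusted p = 0.0584). Without S23 at day 4 the interaction was 4.60, in a fit that loses the spread between S13 and S23 at that day. The WNT8B interaction passed among nuclear protein-coding genes, at 0.0250, and with a filter at 5 TPM, at 0.0499. In all, it passed in only 3 of 22 refits.

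TMEM132C, OTX1, FOXB1 and EMX2 were also higher in S13 and S23 at both days, with interactions of 0.49, 0.69, -0.42 and -0.43 (SE 0.33, 0.47, 0.51 and 0.69, limma adjusted p of 0.525 or more). OTX1, a homeobox factor of the forebrain and midbrain, was at 91.7 and 103 TPM for S13 and S23 versus 13.3 and 10.03 TPM for wild type on day 8, and at 35.1 and 82.1 TPM against 11.3 and 9.41 TPM at day 4. A p above the threshold does not show that these differences stayed the same. The intervals are wide, and FOXB1 turned positive, at 1.12, with a pseudocount of 0.1.

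On the deposited scale 30 of the 41 fading genes were lower in S13 and S23 at day 4, so that the interaction was positive, and 11 were higher. That split depended on the scale, with 6 positive and 6 negative interactions among fading genes after median-of-ratios scaling and 13 and 14 after quantile normalization. Of the 41, 16 were protein-coding, 5 were lincRNAs or antisense RNAs and 20 were of other types, while 14450 of the 24248 genes tested were protein-coding. COTL1, which binds actin filaments, was at 184 and 156 TPM for S13 and S23 versus 127 and 133 TPM for WT1 and WT2 at day 8. On day 4 the level was 61.0 and 54.3 TPM for S13 and S23 and 103 and 122 TPM for WT1 and WT2. S13 and S23 were the lower libraries at day 4 and no longer lower at day 8 (interaction 1.33, SE 0.16, limma adjusted p = 0.0129). It passed in 11 of 12 leave-outs but missed with days 4 and 8 only (limma adjusted p = 0.0611) and with the line label as a block (0.0517).

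The same course was followed by PLXNB1, a receptor for semaphorins, at 217 and 220.5 TPM for S13 and S23 versus 154 and 132 TPM for wild type on day 8, and 88.9 and 130.4 TPM against 241 and 216 TPM at day 4 (interaction 1.69, SE 0.25, limma adjusted p = 0.0267). The transcription factor MAF, the vesicle protein VAMP1, the genes CCDC65 and FCHSD1, and the long RNAs RP11-299H22.6 and CTD-2147F2.1 had interactions between 1.31 and 1.95 (adjusted p of at most 0.0328). Their day 4 differences lay between -0.81 and -1.64, and their day 8 differences between 0.29 and 0.71 did not pass. SFRP2, a secreted WNT antagonist, was at 367 and 419.6 TPM against 339.7 and 349 TPM at day 8 and at 291 and 311 TPM against 425 and 446 TPM at day 4 (interaction 0.72, SE 0.11, adjusted p = 0.0328). Of these 8 genes none passed in more than 7 leave-outs, and with median-of-ratios scaling only PLXNB1 and CTD-2147F2.1 passed.

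Among the named genes whose day 4 excess faded, IGDCC3 was the steadiest. This gene (chromosome 15, 65327127 to 65378040, minus strand), which encodes a surface protein of the immunoglobulin superfamily, was at 87.1 and 77.7 TPM for S13 and S23 versus 103 and 95.7 TPM for WT1 and WT2 at day 8. Day 4 gave 44.4 and 53.0 TPM for S13 and S23 and 14.8 and 15.5 TPM for WT1 and WT2. Both genotypes rose by day 8, wild type by 2.63 and S13 and S23 by 0.75 on the log2 scale, and ended near each other. The interaction was -1.88 (SE 0.17, limma adjusted p = 0.00638), and it passed in all 12 leave-outs but missed with the line label as a block (0.0517).

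MYCL, a MYC family factor, was at 15.0 and 14.2 TPM for S13 and S23 versus 14.2 and 11.0 TPM for wild type on day 8, and at 24.6 and 34.0 TPM against 7.61 and 6.63 TPM at day 4 (interaction -1.68, SE 0.28, limma adjusted p = 0.0382). GSC, a homeobox gene, was at 2.30 and 0.697 TPM against 4.96 and 5.51 TPM at day 8 and at 5.37 and 4.30 TPM against 0.791 and 0.641 TPM at day 4. Its order turned round (interaction -3.16, SE 0.42, adjusted p = 0.0199), but the day 8 difference of -1.40 just missed the threshold (adjusted p = 0.0509), which places it among the fading genes. MYCL passed in 1 of 12 leave-outs and GSC in 7.

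A day 4 call without a day 8 call was given to 137 genes, of which 41 (29.9%) passed the interaction. DBX1, a homeobox gene of the caudal forebrain and spinal cord, was at 12.5 and 8.98 TPM for S13 and S23 versus 6.76 and 3.95 TPM for WT1 and WT2 at day 8. The day 4 levels were 111 and 173 TPM for S13 and S23 and 18.2 and 15.5 TPM for WT1 and WT2. S13 and S23 were higher at both days, by far more at day 4. The interaction was -2.06 (SE 0.39, limma adjusted p = 0.0542), which just missed the threshold, and it passed with a filter at 5 TPM, at 0.0472, and among nuclear protein-coding genes, at 0.0260. It passed in no other of the 22 refits. PPP1R17, a phosphatase regulator, was at 1.36 and 0.806 TPM for S13 and S23 versus 0.162 and 0.270 TPM for wild type on day 8, and at 15.5 and 22.1 TPM versus 1.59 and 0.953 TPM on day 4 (interaction -2.35, SE 0.51, adjusted p = 0.0744). CNTN2, an adhesion protein of young axons, was at 13.5 and 11.9 TPM against 12.8 and 6.31 TPM at day 8 and at 87.5 and 165 TPM against 21.8 and 27.6 TPM at day 4 (interaction -1.80, SE 0.55, adjusted p = 0.159).

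In 13 genes the difference turned, passing at both days with opposite signs. In 10 of them S13 and S23 were higher at day 8 and lower at day 4, and in 3 the order was the reverse. After median-of-ratios scaling the turning genes were 2 and 3 in these orders, and after quantile normalization 3 and 4. SLC7A8, a transporter of amino acids (chromosome 14, 23125295 to 23183674, minus strand), was at 99.5 and 75.9 TPM for S13 and S23 versus 39.3 and 30.1 TPM for WT1 and WT2 at day 8. Earlier, at day 4, it held 20.1 and 22.0 TPM for S13 and S23 and 40.0 and 48.9 TPM for WT1 and WT2. S13 and S23 were above both wild-type libraries at day 8 and below both at day 4. The difference was 1.31 at day 8 (adjusted p = 0.00755) and -1.04 at day 4 (adjusted p = 0.0482), and the interaction was 2.35 (SE 0.25, limma adjusted p = 0.00911).

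ANOS1, which encodes the matrix protein anosmin (chromosome X, 8528874 to 8732186, minus strand), turned with a fall in wild type. It was at 33.5 and 33.9 TPM for S13 and S23 versus 16.8 and 14.4 TPM for WT1 and WT2 at day 8, and at 37.0 and 36.2 TPM against 61.8 and 56.0 TPM at day 4. S13 and S23 held one level while wild type went past it (wild-type step -1.85, adjusted p = 0.000139, interaction 1.74, SE 0.15, limma adjusted p = 0.00565). RHOU, a small GTPase, turned the other way, at 31.2 and 24.2 TPM against 53.7 and 53.6 TPM at day 8 and at 54.5 and 47.5 TPM against 28.2 and 23.5 TPM at day 4 (interaction -1.89, SE 0.22, adjusted p = 0.0115). The kinase gene MAPKAPK3 did likewise, at 92.4 and 85.6 TPM against 128 and 133 TPM at day 8 and at 114 and 115 TPM against 76.0 and 72.0 TPM at day 4 (interaction -1.17, SE 0.11, adjusted p = 0.00638).

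The histone deacetylase HDAC7, the transcription cofactors AFF1 and SSBP3, the nuclear protein gene AKAP8L and the hydrolase gene NUDT14 turned with smaller differences, of 0.42 to 0.68 at day 8 and of -0.56 to -0.81 at day 4. Their interactions lay between 1.03 and 1.34 (limma adjusted p of at most 0.0133). SLC7A8, ANOS1, SSBP3 and MAPKAPK3 passed in all 12 leave-outs. Among the leave-outs, HDAC7 and AKAP8L missed only without WT2 at day 4, and RHOU without that library or WT2 at day 8. AFF1 missed without WT1 or WT2 at day 4, and NUDT14 without either of these or WT2 at day 8. With the line label as a block, ANOS1 and RHOU passed and the other turning genes named here missed (limma adjusted p of 0.0517 to 0.0655). NUDT14 also missed with days 4 and 8 only (0.0603).

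**Figure D4:**
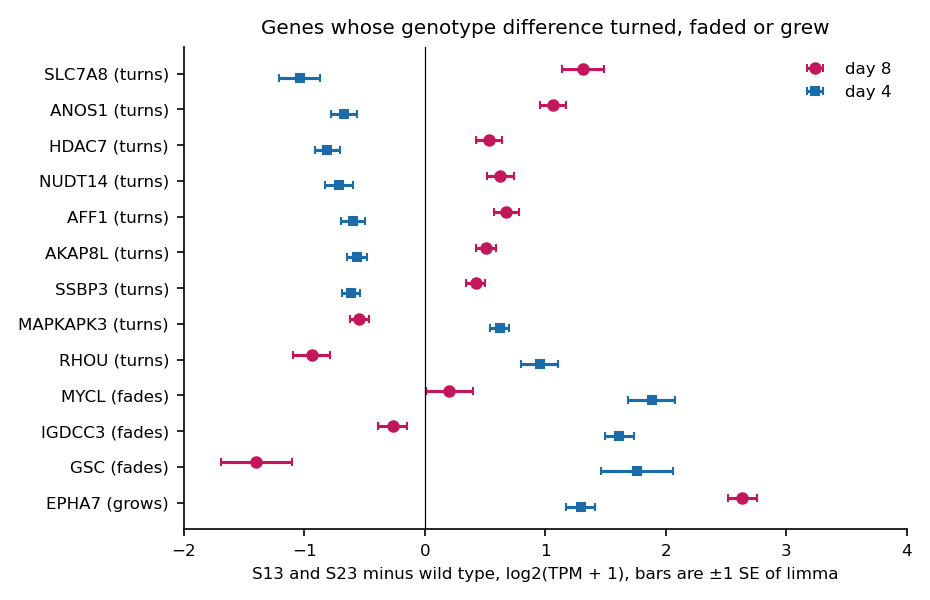
Differences between S13 and S23 and wild type in log2(TPM + 1) at day 8 (circles) and day 4 (squares) on the x axis, with bars of 1 SE from limma, for the named genes (y) that turned, for those that faded from a day 4 excess and for EPHA7. For the first 9 genes the circle and the square lie on opposite sides of 0, as at 1.31 and -1.04 for SLC7A8.

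The 40 unplaced genes had fitted differences of opposite sign at day 8 and day 4 in all of them, which the rule of this class fixed in advance. An interaction has a larger SE than a day's difference, so a gene with the same sign at both days would have passed at a day too. Median sizes were 0.56 at day 8 and 0.69 at day 4, and interactions were up to 2.75 in size. The interaction was positive in 35 on the deposited scale, but the unplaced genes were 5 positive and 9 negative after median-of-ratios scaling and 13 and 14 after quantile normalization. Of the 40, 35 were protein-coding. DDIT4, which restrains the growth kinase mTOR under stress, was at 73.2 and 69.1 TPM for S13 and S23 versus 38.0 and 39.9 TPM for WT1 and WT2 at day 8, and at 13.9 and 20.5 TPM against 35.6 and 43.1 TPM at day 4 (interaction 2.02, SE 0.30, limma adjusted p = 0.0268). The laminin gene LAMA5 was at 165 and 209.5 TPM against 118 and 97.3 TPM at day 8 and at 48.7 and 76.0 TPM against 108 and 116 TPM at day 4 (interaction 1.65, SE 0.28, adjusted p = 0.0424). In both genes S13 and S23 were the higher libraries at day 8 and the lower at day 4.

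TNFRSF25, PGGHG, ENGASE, TMEM50B, GLT1D1 and PLEKHG5 had interactions of 1.50 to 1.90, and EIF4EBP1, NME1 and PARK7 of -1.05, -0.93 and -0.53 (limma adjusted p of at most 0.0498). TNFRSF25 and PLEKHG5 overlap on chromosome 1, and NME1 has a close paralog, so that reads may have been shared. Other named genes with exons that overlap those of a tested gene were MIAT, SEMA5A, FGFR1, NR2F1, SEMA6A, EMX2, FZD8, VAMP1, CCDC65, FCHSD1, HDAC7, AKAP8L, SSBP3, MAPKAPK3, DDIT4, LAMA5 and TMEM50B, and their values are uncertain to that extent. DDIT4 and EIF4EBP1 passed in 3 of 12 leave-outs and the other unplaced genes named in this and the preceding paragraph in at most 2, with adjusted p of up to 0.152.

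Beside the list counts below, the interaction passed with a positive sign in 0.788% and a negative one in 0.326% of all genes tested. The median interaction over all genes tested was 0.12. The lists were chosen with earlier results of these data known, and no list was tested against these shares. In the list of 18 caudal forebrain genes tested, 3 passed, all positive, namely NR2F2, DMRT3 and NR2F1, and the median interaction was 0.60. In the list of 15 rostral forebrain and eye field genes, 2 passed, both negative, VAX1 among them, and the median was -0.38. Fitted interactions in this list were negative in 10 genes and positive in 5. Of the positive ones, RAX and LHX2 were lower in S13 and S23 at day 4, by -1.89 and -1.78, and passed there. At day 8 their differences were -0.79 and -0.75 and did not pass. Their interactions of 1.10 and 1.03 did not pass either (limma adjusted p = 0.283 and 0.101). NR2F2, an orphan nuclear receptor, was at 85.9 and 102 TPM for S13 and S23 versus 29.6 and 24.8 TPM for WT1 and WT2 at day 8. On day 4 the level was 20.5 and 29.6 TPM for S13 and S23 and 42.7 and 36.5 TPM for WT1 and WT2, so that the order turned round (interaction 2.41, SE 0.27, limma adjusted p = 0.0102, day 4 adjusted p = 0.143). It passed in 11 of 12 leave-outs and not without WT1 at day 4 (0.0506).

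Its relative NR2F1 rose in both genotypes, to 152 and 152 TPM for S13 and S23 versus 107 and 93.7 TPM for wild type on day 8, with 13.6 and 10.3 TPM against 18.5 and 22.1 TPM at day 4 (interaction 1.31, SE 0.22, limma adjusted p = 0.0399, 1 of 12 leave-outs). VAX1, a homeobox factor of the ventral forebrain and optic stalk, was at 0.344 and 0.0381 TPM against 2.55 and 3.96 TPM at day 8 and at 0.607 TPM or less in the 4 libraries of day 4 (interaction -2.17, SE 0.36, adjusted p = 0.0406). A pair of rostral genes differed at both days, in opposite directions, without a passed interaction. FEZF2, a factor of forebrain progenitors and projection neurons, was higher in S13 and S23, at 128 and 122 TPM against 44.2 and 28.05 TPM at day 8 and at 11.6 and 28.97 TPM against 2.52 and 2.19 TPM at day 4 (interaction -0.75, SE 0.51, adjusted p = 0.535). SIX3, an eye field factor, was lower, at 12.2 and 7.79 TPM against 46.0 and 58.2 TPM at day 8 and at 31.5 and 26.5 TPM against 93.2 and 110.1 TPM at day 4 (interaction -0.51, SE 0.30, adjusted p = 0.456).

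In the WNT lists, 1 of 11 genes for ligands and their secretion passed (WLS, positive), 2 of 18 receptors and co-receptors (FZD5 and FZD8, negative), 1 of 15 antagonists (SFRP2, positive) and 0 of 18 canonical targets and nuclear factors, 7 of which had an unadjusted p under 0.05 in limma. Median interactions were 0.28, 0.09, 0.27 and -0.26, beside 0.12 over all genes tested, and the last was 0.0011 without S23 at day 8. Of the other 7 frizzled genes tested, none passed, and their interactions lay between -0.54 and 0.64. TCF7L2, a nuclear effector of WNT, missed the threshold narrowly at 1.32 (SE 0.25, limma adjusted p = 0.0502). The target SP5 was at 2.84 and 0.157 TPM for S13 and S23 versus 0.223 and 0.102 TPM for wild type on day 8 and at 9.31 and 28.0 TPM against 0.0766 and 0.176 TPM at day 4 (interaction -3.08, SE 1.13, adjusted p = 0.228).

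In the FGF list, 2 of 19 genes passed, both receptors. Beside FGFR2, FGFR1 was at 447 and 566 TPM for S13 and S23 versus 332 and 274 TPM for wild type on day 8, and at 412 and 438 TPM against 583 and 705 TPM at day 4 (interaction 1.33, SE 0.20, limma adjusted p = 0.0274, 2 of 12 leave-outs). FGFR3 missed at 1.41 (SE 0.29, adjusted p = 0.0641). None of the 9 feedback and target genes of the SPRY, SPRED, DUSP and ETV families passed, with interactions between -1.32 and 2.02.

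In the BMP list, 1 of 16 genes passed, ID4. The median interaction of 1.09 rested on S13 at day 8, and was 0.26 without that library and 1.20 without S23 at day 8. The BMP target ID1 was at 57.2 and 5.11 TPM for S13 and S23 versus 8.30 and 6.73 TPM for wild type on day 8, and its relative ID3 at 72.8 and 8.34 TPM against 16.7 and 15.1 TPM. ID4, an inhibitor of proneural factors, was at 150.3 and 162 TPM for S13 and S23 versus 67.4 and 53.9 TPM for WT1 and WT2 at day 8. Day 4 gave 6.22 and 5.16 TPM for S13 and S23 and 9.86 and 11.5 TPM for WT1 and WT2. It rose in both genotypes, by 4.56 in S13 and S23 and by 2.39 in wild type, and the order turned round (interaction 2.16, SE 0.23, limma adjusted p = 0.00911, all 12 leave-outs). Of the NOTCH list 1 of 19 passed, HES3, with a median of 0.63.

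Of 29 Eph, ephrin and guidance genes tested, 4 passed with a positive interaction, EPHA7, EFNB2, SEMA6A and ROBO1, and SEMA5A with a negative one. EFNB2, an ephrin ligand, was at 79.7 and 78.2 TPM for S13 and S23 versus 32.5 and 28.3 TPM for WT1 and WT2 at day 8, and at 54.5 and 60.6 TPM against 73.9 and 79.0 TPM at day 4 (interaction 1.75, SE 0.18, limma adjusted p = 0.00911, all 12 leave-outs). S13 and S23 were above wild type at day 8 and below it at day 4. SEMA6A and ROBO1 had interactions of 1.18 and 0.90 (adjusted p = 0.0456 and 0.0333, 2 and 4 of 12 leave-outs).

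Of 24 progenitor genes tested, 2 passed, both positive. MSI1, an RNA-binding protein of neural stem cells, was at 159.9 and 173 TPM for S13 and S23 versus 81.5 and 76.5 TPM for wild type on day 8 and at 46.6 and 57.4 TPM against 60.8 and 64.1 TPM at day 4 (interaction 1.33, SE 0.21, limma adjusted p = 0.0351). DACH1 was at 46.7 and 36.8 TPM against 19.1 and 17.02 TPM at day 8 and at 11.9 and 11.7 TPM against 14.5 and 13.6 TPM at day 4 (interaction 1.40, SE 0.21, adjusted p = 0.0273). Each passed in 3 of 12 leave-outs. Of 14 SOX genes 2 passed, SOX14 and SOX13, and SOX13 was at 130.2 and 130.2 TPM against 35.4 and 38.3 TPM at day 8 and at 72.2 and 71.5 TPM against 46.0 and 56.5 TPM at day 4 (interaction 1.31, SE 0.15, adjusted p = 0.0107, all 12 leave-outs).

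Of 16 young neuron genes 1 passed, NEUROD4, a proneural factor, at 6.75 and 3.19 TPM for S13 and S23 versus 0.221 TPM and listed at 0 in WT1 and WT2 at day 8, and at 0.0254 TPM or less at day 4 (limma adjusted p = 0.0430), and it passed in none of the 10 leave-outs in which it was tested, with adjusted p of 0.0714 or more. Of 12 retinoic acid genes 1 passed, DHRS3, which turns retinal back to retinol, at 2.60 and 2.87 TPM against 0.593 and 0.444 TPM at day 8 and at 0.890 and 0.759 TPM against 1.22 and 1.66 TPM at day 4 (interaction 1.71, SE 0.29, adjusted p = 0.0430, 2 of 12 leave-outs). Of 16 imprinted genes 2 passed, DIO3 and BEGAIN. After median-of-ratios scaling NR2F1, FGFR1, MSI1, DACH1, SEMA6A, ROBO1, NEUROD4 and DHRS3 missed the threshold, with adjusted p between 0.0538 and 0.1002. In the lists of cholesterol synthesis (22 genes tested), replication and cell cycle (24), hedgehog (10), hypoxia and glycolysis (15), midbrain and hindbrain (6) and pluripotency (18), 0 passed in limma, while 5, 9, 2, 4, 0 and 2 members had an unadjusted p under 0.05. Median interactions there, in the same order, were 0.50, -0.07, 0.61, 0.37, 0.15 and 0.22, and that of the midbrain and hindbrain list was -0.20 without S13 at day 8.

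**Figure D5:**
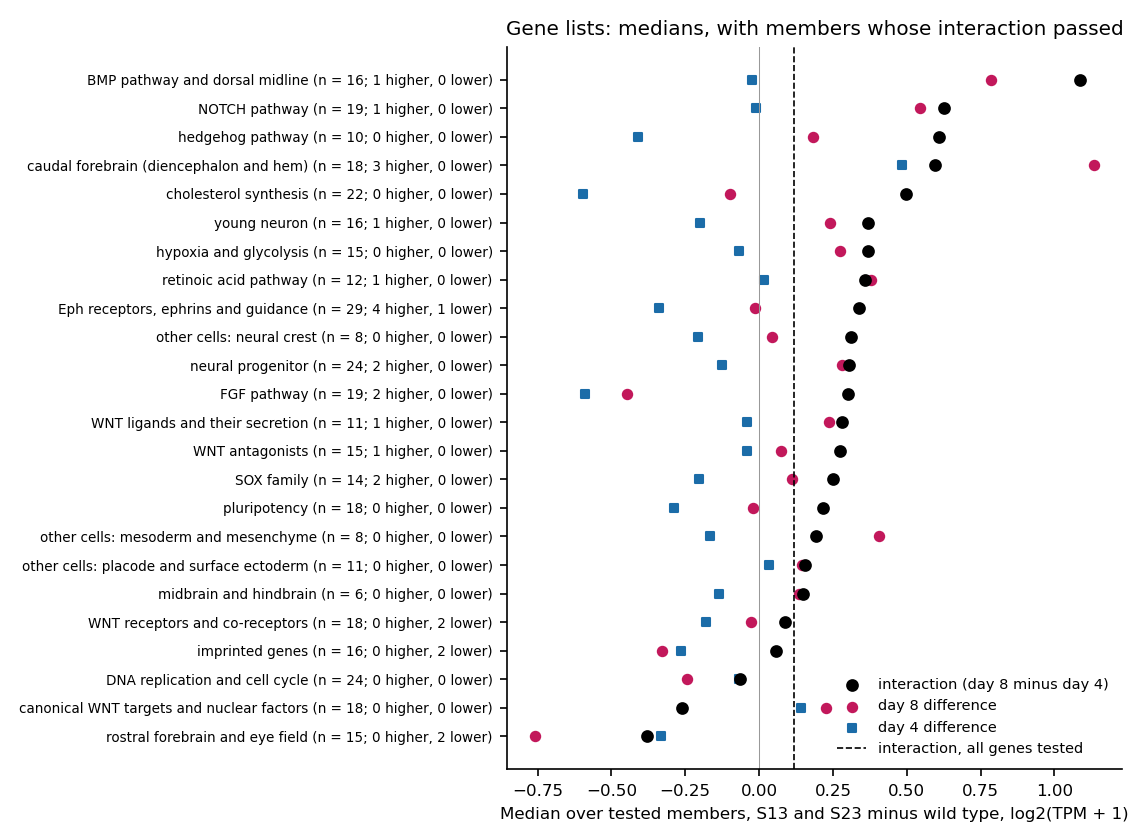
Medians over the tested members of each gene list with at least 5 of them (y), in log2(TPM + 1), for the interaction (black), the day 8 difference (red circles) and the day 4 difference (blue squares); the dashed line is the interaction's median over all genes tested, 0.12. The BMP list lies highest at 1.09, or 0.26 without S13 at day 8, and the rostral forebrain list lowest at -0.38, and the labels give the members that passed.

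Markers of other cell types were set beside these results. None of the 8 neural crest, 11 placode, 8 mesoderm and 2 endoderm genes tested passed the interaction in limma, while 2, 2, 3 and 1 had an unadjusted p under 0.05. Their summed levels in S13 and S23 against WT1 and WT2 at day 8 were 201 and 274 against 236 and 228 TPM for neural crest, 625 and 573 against 486 and 445 TPM for mesoderm, and 92.3 and 113 against 32 and 31 TPM for endoderm. At day 4 the sums were 65.5 and 55.8 against 84.0 and 102 TPM, 280 and 134 against 148 and 178 TPM, and 14.8 and 21.6 against 5 and 6.88 TPM. The endoderm sum was nearly all CXCR4, and SOX17, its defining factor, was listed at 0 in all 8 libraries. For placode the sums were 339 and 255 against 241 and 221 TPM at day 8 and 182 and 125 against 150 and 153 TPM at day 4. In mixed cells such as these, fewer cells of a type and less RNA per cell cannot be told apart, and the part of cell makeup in the interactions was not tested.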

How the data were processed

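Per the submitters' processing notes, the TPM values per gene that the authors deposited came from Salmon 0.8.2 on hg38, and base calls from CASAVA 1.7. The labels' protocols describe poly(A)-selected RNA and name several sequencers without assigning them to libraries. No source used here states the annotation release or whether strand was used, so overlapping and antisense genes are uncertain. TPM keeps no record of read numbers, so depth and its precision are unknown. The table held 58219 genes and 0 columns of other series.

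Genes that reached 1 TPM in 2 or more libraries (24248) entered limma 3.58.1, run in R 4.3.3, as log2(TPM + 1), which is a pseudocount of 1. All 12 libraries, in 6 groups of 2, entered one model with a mean per group and a variance trend (6 residual and 2.29 prior degrees of freedom). Tests were two-sided with Benjamini-Hochberg adjustment over all genes tested, at 0.05, and every adjusted p is from limma. Interaction, day 8, day 4 and both day steps were contrasts of that model. A gene whose interaction passed was called new (day 8 passed, day 4 did not), growing (both passed, same sign, larger at day 8), fading (day 4 passed, day 8 was smaller or did not pass), turning (both passed, opposite signs) or unplaced.

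Named genes were SOX21, WNT8B, up to 8 protein-coding genes or lincRNAs per class and direction with the largest interaction and a group mean of at least 5 TPM, list members that passed, and up to 5 of each kind in the sort by calls alone. Other genes given with values (SIX3, FEZF2, RAX, LHX2, ID1, ID3, GNG12-AS1, SP5, TCF7L2, FGFR3, SOX2, PAX6, POU5F1, NANOG) were chosen after their values were seen. Some genes that met the rule are not reported here. The members and the 25 gene lists were chosen with earlier results of these data known. GENCODE v29 on GRCh38 gave the locations of 57881 identifiers. The alternatives tried included a pseudocount of 0.1, a filter at 5 TPM or none, a 2-fold threshold, 2 scalings, other variance settings, days 4 and 8 only, nuclear protein-coding genes only, the line label as a block, and each library left out. The model was tested on simulated data.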

Additional observations from a re-analysis of the deposited data

Results flagged for a closer look

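A total of 63 named genes, all described in the report or listed here, are given because the difference between S13 and S23 and wild type differed between day 8 and day 4 by limma's interaction test at an adjusted p of 0.05, with the interaction in log2(TPM + 1) in parentheses. Genes new at day 8 with a positive interaction were HES3 (4.24), FGFR2 (3.49), WLS (3.20), MIAT (3.03), RP11-159D12.11 (2.83), LINC01210 (2.76), DMRT3 (2.71), NR5A1 (2.70), SOX14 (2.42), NR2F2 (2.41), NEUROD4 (2.38), ID4 (2.16), EFNB2 (1.75), DHRS3 (1.71), DACH1 (1.40), MSI1 (1.33), FGFR1 (1.33) and SOX13 (1.31). Genes new at day 8 with a negative interaction were PKDCC (-4.99), DIO3 (-3.90), FZD5 (-3.65), ADCYAP1R1 (-3.58), MGST1 (-3.48), FZD8 (-2.88), SEMA5A (-2.37), BEGAIN (-2.28) and VAX1 (-2.17). The gene that grew was EPHA7 (1.34). Genes that faded with a positive interaction were MAF (1.95), RP11-299H22.6 (1.93), PLXNB1 (1.69), CTD-2147F2.1 (1.59), VAMP1 (1.40), CCDC65 (1.33), COTL1 (1.33), FCHSD1 (1.31) and SFRP2 (0.72). Genes that faded with a negative interaction were GSC (-3.16), IGDCC3 (-1.88) and MYCL (-1.68). Genes that turned with a positive interaction were SLC7A8 (2.35), ANOS1 (1.74), HDAC7 (1.34), NUDT14 (1.34), AFF1 (1.27), AKAP8L (1.07) and SSBP3 (1.03). Genes that turned with a negative interaction were RHOU (-1.89) and MAPKAPK3 (-1.17). Unplaced genes with a positive interaction were DDIT4 (2.02), TNFRSF25 (1.90), PGGHG (1.81), ENGASE (1.67), LAMA5 (1.65), TMEM50B (1.61), GLT1D1 (1.55), PLEKHG5 (1.50), NR2F1 (1.31), SEMA6A (1.18) and ROBO1 (0.90). Unplaced genes with a negative interaction were EIF4EBP1 (-1.05), NME1 (-0.93) and PARK7 (-0.53). All 63 kept the sign of their interaction under the refits in which they were tested, some weakly expressed genes being untested in some. Refits that changed only the filter, the variance settings, the block or day 0 could not change that sign. With days 4 and 8 only, 24 passed, and with the line label as a block 10 passed. HES3, PKDCC, DIO3, FZD5, MGST1 and ANOS1 passed in all 22 refits.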

How the results depend on the processing

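The 270 genes kept the sign of their interaction under each alternative in which they were tested, but the number of calls moved. Alternatives that changed only the filter, the variance settings, the block or day 0 left the fitted interaction as it was. Its sign could not change there. It was 154 with a pseudocount of 0.1 (97 new, 2 growing, 27 fading and 18 unplaced), 104 after median-of-ratios scaling (71 new, 2 growing, 12 fading, 5 turning and 14 unplaced, with 97 calls at day 4), and 214 after quantile normalization (2 growing, 27 fading and 7 turning). Among genes of at least 5 TPM 2 grew, and without a filter on low values 62 faded. A 2-fold threshold left 5 turning and 123 calls at day 4, with 63 unplaced. Without the variance trend 8 turned, and with robust variances 8 turned and 23 faded, with 107 calls at day 4. Among nuclear protein-coding genes 7 grew.

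With days 4 and 8 only, 45 genes passed (35 new, 10 unplaced, 0 growing, 0 fading and 0 turning), with 312 calls at day 8 and 0 at day 4, on 4 residual degrees of freedom. Leaving out each library in turn gave 54 to 242 calls, 34 to 125 new, 0 to 3 growing, 4 to 58 fading, 0 to 16 turning and 4 to 41 unplaced, with 14 to 191 calls at day 4 and 170 to 774 at day 8. The fewest came without WT1 at day 4 and the most without S23 at day 4. Where a group is left with 1 library, that library is assumed to vary like the others. With the line label as a replicate block, 17 genes passed. ID4, EFNB2 and SOX13, which passed in all 12 leave-outs, missed there, with limma adjusted p of 0.0536, 0.0517 and 0.0517. The correlation of deviations between days 8 and 4 was 0.0712 for S13 and S23 and 0.00014 for wild type, so the labels were not taken as pairs, and classes could not be formed there.

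Interactions that changed sign had not passed: FOXB1 became 1.12 with a pseudocount of 0.1, and over the leave-outs FOXB1 ran from -0.95 to 0.11, EMX2 from -1.35 to 0.48 (both highest without S23 at day 4) and SOX21 from -0.61 (without S13 at day 8) to 1.23. The median of the BMP list was 0.26 without S13 at day 8 and 1.20 without S23 at day 8, a choice made after seeing the data. The cause of these shifts was not tested. With 2 libraries per group and unknown depth, small changes of the difference between days could be missed, and a gene absent from the 270 is not shown to be stable.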
